A study of Drosophila melanogaster with 36 samples.

Results

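The 6 actin genes of the fly were followed in thoraxes of Drosophila melanogaster: Act88F (CG5178), Act57B (CG10067), Act79B (CG7478), Act87E (CG18290), Act5C (CG4027) and Act42A (CG12051). They were picked by their identifiers, as 6 of the 13820 gene identifiers on the arrays, and each has 1 line of values, with 6 of the 36 empty for Act88F and none for the others. Control flies carried the muscle driver alone (Mhc-Gal4/+), and PABPN1-17ala flies carried the same driver with the transgene (UAS-PABPN1-17ala/+; Mhc-Gal4/+), so that both genotypes share the driver and no flies without it were compared. The transgene makes mammalian PABPN1, a nuclear poly(A) binding protein, with the expanded alanine stretch of oculopharyngeal muscular dystrophy, in muscles that use the myosin heavy chain promoter. Thoraxes were taken at days 2, 6 and 11 of adult life, and each of the 6 conditions had 3 RNA samples of 50 thoraxes each. The 36 arrays had 2 colours, and each condition had 3 arrays with its RNA in Cy5 (replicates 1 to 3) and 3 with its RNA in Cy3 (replicates 4 to 6). The other channel held a common reference of control flies at day 2. One array of the PABPN1-17ala day 2 condition, replicate 1, has a source label that names the control genotype while its other labels name PABPN1-17ala, and every actin and list comparison that uses it was also run without it. Of the calls named below, this ended that of Mlp60A for the mean of the 3 days and no other, and it moved no actin across the threshold.

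Actin is the monomer of the thin filaments that myosin pulls on in muscle, and of the filaments that shape and divide other cells. In the fly, Act88F is the actin of the indirect flight muscles, which fill most of the thorax. Act79B is the actin of tubular muscles of the leg and the jump muscle, Act57B and Act87E are best known from the muscles of the larval body wall, and Act5C and Act42A are the cytoplasmic actins found in nearly all cells. The protein sequences of the 6 are nearly identical, and the probe sequences were not used here, so whether a probe also reads a related actin was not tested.

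All values below are log2 ratios of thorax RNA over the reference as the authors normalized them. Neither the base of the logarithm nor which channel was divided by which is stated, and base 2 was assumed. The likely direction rests on GstD1, a glutathione transferase gene whose reporter is described as brighter in PABPN1-17ala muscles. Read as sample over reference, GstD1 was higher in PABPN1-17ala by 2.17 at day 2, by 1.05 at day 6 and by 1.37 at day 11. With the opposite direction, each sign below would turn. A ratio gives no level of one gene against another, so the presence of muscle markers could not be checked as a level. In whole thoraxes, fewer cells of a type and less RNA per cell cannot be told apart.

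Act88F stood apart from the other 5 actins in 2 ways. It was the only one with empty values, on 6 of 36 arrays, and it had the largest offset between the dyes. In control flies at day 2 its values were -0.45, -0.99 and -1.25 on the Cy5 arrays and 1.54, 1.49 and 1.5 on the Cy3 arrays. These flies are of the same genotype and age as the reference, yet the Cy5 arrays were all below 0 and the Cy3 arrays all above it. The Cy3 mean exceeded the Cy5 mean by 2.40, and no other of the 13820 genes had a larger offset in this condition, where the median size of the offset was 0.166. The offsets of the other actins were 0.47 for Act57B, 0.08 for Act79B, -0.59 for Act87E, 0.44 for Act5C and -0.46 for Act42A.

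The day 2 pattern of Act88F was much the same in PABPN1-17ala flies, with 0.25, -0.76 and -0.74 on the Cy5 arrays and 1.35, 1.33 and 1.39 on the Cy3 arrays. At day 6 the control arrays gave -0.21 and -0.69 with Cy5 and 0.83 and -0.44 with Cy3, with replicates 2 and 6 empty. The PABPN1-17ala arrays at day 6 gave -1.59, -1.08 and -1.60 with Cy5 and -0.31 and 0.22 with Cy3, with replicate 5 empty. The 3 PABPN1-17ala Cy5 arrays of this day were thus all below the 2 control ones, while the Cy3 arrays of both genotypes overlapped. At day 11 the control values were -1.06, -1.75 and -1.42 with Cy5 and -0.95, -0.67 and -0.64 with Cy3. The PABPN1-17ala flies at day 11 had -2.24 and -0.25 with Cy5 and a single Cy3 value of -0.59, with replicates 1, 5 and 6 empty. The Cy3 arrays of day 11 were below those of day 2 in both genotypes, from a single array in PABPN1-17ala flies at day 11. How many of all genes are apart in this way on a single dye was not counted, here or for Cy5 at day 6. The Cy5 pair of PABPN1-17ala day 11 was the most widely spread set of this gene.

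**Figure D1:**
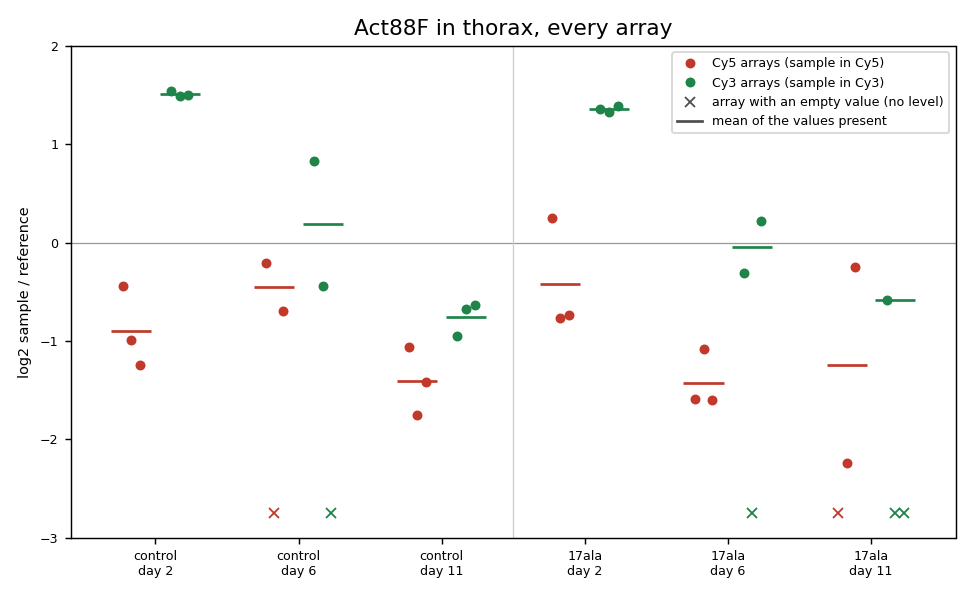
Act88F on every array, as the log2 ratio of thorax RNA over the reference (vertical axis), for the 6 conditions (horizontal axis; 17ala stands for PABPN1-17ala). Points are arrays coloured by the dye of the thorax RNA, short lines are means of the values present, and crosses at the bottom mark the 6 arrays with an empty value, which have no level. The Cy3 arrays of day 2 sit near 1.5 in control and near 1.36 in PABPN1-17ala flies, far above the Cy5 arrays of the same flies.

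With only 1 value in 1 of the sets, Act88F did not enter the test, which asked for 2 of the 3 arrays in each condition and dye. The 6 empty values were 2 of 18 control arrays and 4 of 18 PABPN1-17ala arrays, all at days 6 and 11, and this difference was not tested. Such gaps were rare, since 13 of the 13820 genes (0.094%) had 6 or more. What an empty value stands for is not stated. The arrays on which Act88F was empty had 70 and 27 empty genes in control flies at day 6, 17 in PABPN1-17ala flies at day 6, and 65, 29 and 673 in PABPN1-17ala flies at day 11, while 25 of the 36 arrays had none. The array with 673, PABPN1-17ala day 11 replicate 6, held most of the 932 empty values of the series.

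Between the genotypes, the difference of the Act88F means was 0.48 with Cy5 and -0.15 with Cy3 at day 2, and it was -0.97 and -0.24 at day 6. At day 11 it was 0.16 with either dye, from 3 values in the PABPN1-17ala flies. These were -2.24 and -0.25 with Cy5 and replicate 4 alone with Cy3, so the match of the dyes carries little weight. Leaving out replicate 4 raised the genotype calls at day 11 over all genes the most. With age, from day 2 to day 11, the means differed by -0.52 with Cy5 and -2.26 with Cy3 in control flies, and by -0.83 and -1.95 in PABPN1-17ala flies. The sign was negative in both dyes and both genotypes, but the size depended on the dye. At day 11 the Cy3 mean of PABPN1-17ala flies is again replicate 4 alone. When the filter was dropped and Act88F was fitted by limma with all 13820 genes, the adjusted p was smallest between days 2 and 6 of PABPN1-17ala flies, at 0.66, and it was called in none of the 11 comparisons. At an unadjusted p under 0.05 in both dyes it passed in 1 of the 11, that same comparison, with a difference of -1.01 with Cy5 and -1.40 with Cy3. Of the 13791 genes that met the filter, 815 passed this cut there.

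The question of whether PABPN1-17ala changes the actin genes was asked of the other 5, which had no empty value. No actin passed in any genotype comparison. Over all 13791 genes tested by limma, with the larger p of both dyes and Benjamini-Hochberg adjustment, 0.95% were called at day 2, 1.6% at day 6, 1.18% at day 11 and 3.18% for the mean of the 3 days. These shares moved with single arrays. That of day 2 fell to 0.544% without PABPN1-17ala day 2 replicate 3 and rose to 1.24% without replicate 1, the array with conflicting labels. That of day 11 was 3.33% without PABPN1-17ala day 11 replicate 4 and 0.471% without replicate 6 of that condition. Of the 5 actins, 0 were called in each, also without any single array. At an unadjusted p under 0.05 Act57B passed at day 2 and for the mean of the 3 days, as did 543 and 1063 of the 13791 genes. The median change over the 5 was 0.03, -0.01, 0.04 and 0.04 in these comparisons, and over all genes it was -0.01, -0.01, 0.03 and 0.01.

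Act57B gave the largest genotype differences among the 5, at days 2 and 6. At day 2, control flies had 0.30, -0.33 and -0.02 on the Cy5 arrays and 0.37, 0.26 and 0.72 on the Cy3 arrays. PABPN1-17ala flies had 0.71, 0.55 and 0.42 with Cy5 and 0.85, 1.13 and 1.05 with Cy3. Within each dye every PABPN1-17ala array was above every control array, which held for 3.92% of all genes in one direction or the other. The difference was 0.58 ± 0.18 with Cy5 and 0.56 ± 0.25 with Cy3, a mean of 0.57 or 1.48-fold if the base is 2. Here and below, ± gives the SE from limma, with the spread pooled over all conditions of a dye. In limma the unadjusted p was 0.043 and the adjusted p was 1. Without the array with conflicting labels the mean was 0.53.

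At day 6, Act57B in control flies was -0.40, -0.67 and -0.49 with Cy5 and 0.10, -0.13 and 0.12 with Cy3. In PABPN1-17ala flies it was -0.33, 0.12 and -0.29 with Cy5 and 0.90, 0.77 and 0.80 with Cy3. The groups were again apart on both dyes, as were those of 10.4% of all genes. The difference was 0.35 ± 0.18 with Cy5 and 0.80 ± 0.25 with Cy3, a mean of 0.58 with a limma adjusted p of 1. At day 11 the mean difference was -0.03, with opposite signs in the dyes, at -0.22 ± 0.18 with Cy5 and 0.16 ± 0.25 with Cy3. None of the 5 actins was apart between the genotypes at day 11, against 3.55% of all genes. For the mean of the 3 days Act57B differed by 0.37, with a limma adjusted p of 0.58, and by 0.36 without the array with conflicting labels.

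The other 4 actins differed little between the genotypes. Act42A, a cytoplasmic actin, was higher in PABPN1-17ala flies at day 6 by 0.29 ± 0.16 with Cy5 and 0.26 ± 0.08 with Cy3, and its arrays were apart on both dyes, at -0.64 to -0.45 in control and -0.38 to -0.17 in PABPN1-17ala flies (limma adjusted p = 1). Act5C, the other cytoplasmic actin, differed by -0.18 at day 2, by -0.13 at day 6 and by 0.02 at day 11. Act87E differed by 0.04, -0.11 and 0.19 on these days. Act79B, the actin of leg and jump muscles, differed by 0.03, -0.01 and 0.04. All of these had a limma adjusted p of 1, and all but the Act42A difference at day 6 had overlapping arrays on at least one dye.

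**Figure D2:**
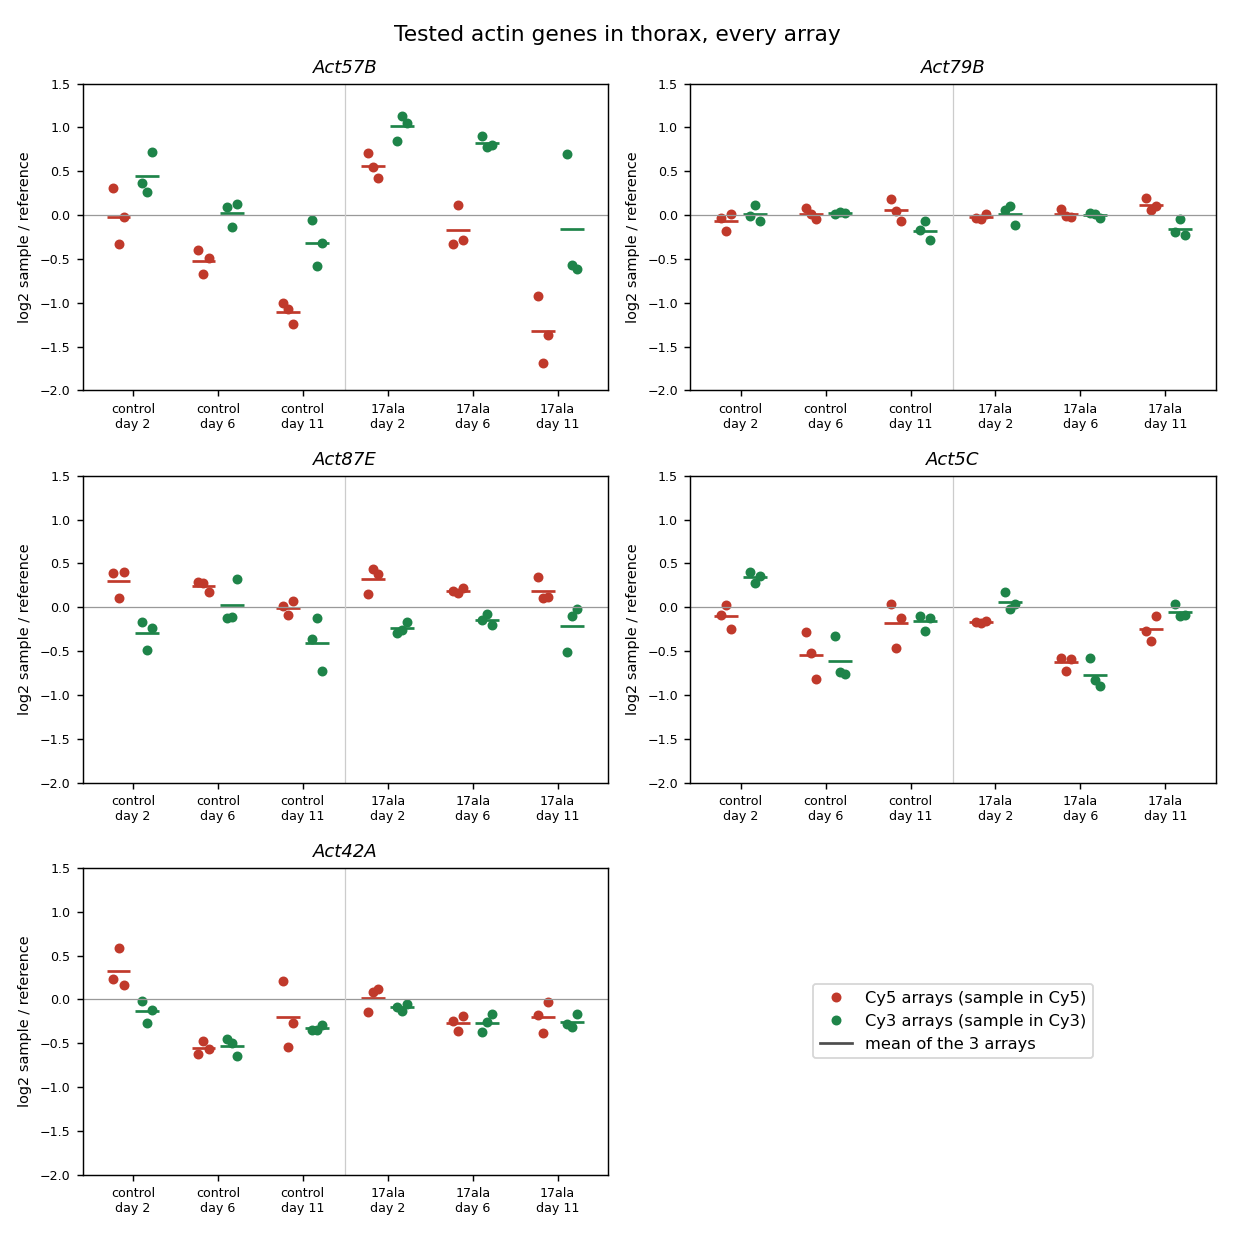
The 5 tested actin genes on every array, as the log2 ratio of thorax RNA over the reference (vertical axis, the same range in each panel), by condition (horizontal axis; 17ala stands for PABPN1-17ala). Points are arrays coloured by the dye of the thorax RNA and short lines are means of 3 arrays. Act57B sits lower at day 11 than at day 2 in both genotypes, Act5C and Act42A have their lowest means at day 6 within each genotype, and Act79B keeps within -0.28 and 0.20 throughout.

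The question of how the actins change with age was asked within each genotype. Between days 2 and 11, Act57B was the only actin called, and only in PABPN1-17ala flies. The whole set of genes had 1.55% called in control flies and 3.94% in PABPN1-17ala flies. In control flies 0 of the 5 actins passed in limma, with Act57B and Act42A at an unadjusted p under 0.05. That cut was met by 743 of the 13791 genes. The 5 had a median change of -0.30 in control and -0.10 in PABPN1-17ala flies. The Cy5 and Cy3 changes correlated at 0.14 in control and 0.65 in PABPN1-17ala flies over all genes (genes are no independent replicates), and p is the larger of both dyes.

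In PABPN1-17ala flies at day 11, Act57B was -0.93, -1.69 and -1.37 on the Cy5 arrays and 0.69, -0.56 and -0.62 on the Cy3 arrays. Every one of these was below the day 2 arrays of the same dye, although replicate 4, at 0.69, lay more than 1 log2 unit above the other Cy3 arrays. The fall was -1.89 ± 0.18 with Cy5 and -1.17 ± 0.25 with Cy3, a mean of -1.53 or 2.89-fold if the base is 2 (limma adjusted p = 0.013). A larger change was seen in 0.827% of genes, and groups apart on both dyes in 9.34%. The call was lost without day 2 replicate 5 (adjusted p = 0.060), day 11 replicate 5 (0.085) or day 11 replicate 6 (0.084), and when only the compared conditions were fitted (0.25). It held in the other 9 of 12 fits with 1 array left out, where the limma adjusted p went as low as 8.5e-06. Without the array with conflicting labels it held, at -1.49 (limma adjusted p = 0.014).

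In control flies at day 11, Act57B was -1.0, -1.07 and -1.24 with Cy5 and -0.05, -0.59 and -0.32 with Cy3. These arrays too were all below those of day 2 on the same dye, as in 4.25% of genes. The difference was -1.09 ± 0.18 with Cy5 and -0.77 ± 0.25 with Cy3, a mean of -0.93 that did not pass (limma adjusted p = 0.30). Whether the genotypes differ in this was tested directly. The genotype difference of Act57B at day 11 minus that at day 2 was -0.80 ± 0.26 with Cy5 and -0.40 ± 0.36 with Cy3, a mean of -0.60 (limma adjusted p = 1), so the call in one genotype alone does not show that the genotypes differ. Without the array with conflicting labels it was -0.56. In this test 0.29% of all genes and 0 of the 5 actins were called, and the share of genes was 1.69% without PABPN1-17ala day 11 replicate 4 and 0.457% without the array with conflicting labels, still with no actin called. With all arrays, 0 of the 5 passed at an unadjusted p under 0.05, against 619 of the 13791 genes. The comparison of genotypes at day 2 and both comparisons with age use the same day 2 arrays and are not independent.

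Other muscle genes were lower at day 11 too. Over all genes, 0.66% were called higher and 0.892% lower in control flies, and 2.13% higher and 1.81% lower in PABPN1-17ala flies, against which the counts of markers below are to be read. Of 12 identifiers tested on a list for flight muscle, 4 were called lower in control (median -0.81) and 7 in PABPN1-17ala flies (median -1.55). The list also holds genes of muscle in general, such as Mhc, so its counts do not set flight muscle apart from tubular muscle. Among those called was fln, flightin of the thick filament, at -2.36 in control and -2.89 in PABPN1-17ala flies. Mhc, the myosin heavy chain whose promoter drives the transgene, was lower at -1.55 and -2.39. Mlc2, a myosin light chain, was lower at -2.25 and -3.26, TpnC4 at -1.58 and -1.86, and salm in PABPN1-17ala flies at -1.84. Of 4 markers of tubular muscle, Act79B among them, 1, TpnC41C, was called lower in each genotype. Fat body markers had 2 of 8 called higher in control (FASN1 and Lsd-1) and 1 of 8 in PABPN1-17ala flies (Lsd-1), and neuron markers had 1 of 9 identifiers, Syx1A, called lower in PABPN1-17ala flies. The cuticle and epidermis had 1 of 5 lower in control (Cpr100A) and 2 of 5 in PABPN1-17ala flies (Cpr100A and ple), the trachea 1 of 3 (Gasp) in PABPN1-17ala flies, and the markers of glia, haemocytes and gut had 0 called in either. The part of any of these in the fall of Act57B was not tested. Between genotypes, for the mean of the 3 days, 3 of the 12 on the flight muscle list were called, against 3.18% of all genes. In PABPN1-17ala flies fln (-1.27) and TpnC4 (-1.08) were lower and salm (0.87) was higher. No other marker list had a call in that comparison.

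Because the values at day 6 stood out for the cytoplasmic actins, the steps from day 2 to day 6 and from day 6 to day 11 were compared as well, after the values had been seen. From day 2 to day 6, 0.58% of genes were called in control flies (0.247% without day 6 replicate 6) and 1.78% in PABPN1-17ala flies. Of the 5 actins 1 passed, Act42A in control flies. It was 0.24, 0.58 and 0.17 with Cy5 and -0.01, -0.27 and -0.12 with Cy3 at day 2. At day 6 it was -0.63, -0.47 and -0.56 with Cy5 and -0.45, -0.49 and -0.64 with Cy3, below every day 2 array. The fall was -0.88 ± 0.16 with Cy5 and -0.40 ± 0.08 with Cy3, a mean of -0.64 (limma adjusted p = 0.023). It was no longer called when any of 7 of the 12 arrays was left out, among them day 2 replicate 4 (0.12) and day 6 replicate 6 (0.16), when the arrays were centred on their medians (0.065), or when only the compared conditions were fitted (0.27).

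In PABPN1-17ala flies, Act42A went from -0.14 to 0.12 at day 2 to -0.38 to -0.17 at day 6, also apart on both dyes, by a mean of -0.23 that did not pass (limma adjusted p = 1). Act5C, the other of the cytoplasmic pair, did not pass in either genotype. It was -0.09, 0.03 and -0.24 with Cy5 and 0.40, 0.28 and 0.36 with Cy3 in control flies at day 2, and -0.28, -0.53 and -0.81 with Cy5 and -0.33, -0.74 and -0.76 with Cy3 at day 6. Its mean difference from day 2 to day 6 was -0.70 in control flies (limma adjusted p = 0.32) and -0.65 in PABPN1-17ala flies (0.14, and 0.31 without the array with conflicting labels), with arrays apart on both dyes in each genotype. Groups apart on both dyes made up 4.47% of all genes in control and 9.93% in PABPN1-17ala flies. Of the 5 actins, Act57B, Act5C and Act42A were apart in control flies, and Act5C and Act42A in PABPN1-17ala flies. Both cytoplasmic actins thus had lower means at day 6 than at day 2 in each genotype, whether or not they passed.

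From day 6 to day 11, 0.145% of genes were called in control flies and 0.957% in PABPN1-17ala flies, and 0 of the 5 actins in either. The share in control flies was 0.0218% without day 11 replicate 3, and that in PABPN1-17ala flies was 2.66% without day 11 replicate 4 and 0.406% without day 11 replicate 6. At an unadjusted limma p under 0.05, Act87E, Act5C and Act42A passed in control flies, and Act57B and Act5C in PABPN1-17ala flies. Of the 13791 genes tested, 444 passed this cut in control flies and 769 in PABPN1-17ala flies. Act5C differed by 0.40 in control (limma adjusted p = 1) and by 0.55 in PABPN1-17ala flies (0.37). Act57B differed by -1.08 in PABPN1-17ala flies (limma adjusted p = 0.093) and by -0.47 in control flies. The arrays of Act57B and Act5C were apart on both dyes in PABPN1-17ala flies, against 6.07% of all genes. In control flies none of the 5 actins was apart, against 4.47%.

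**Figure D3:**
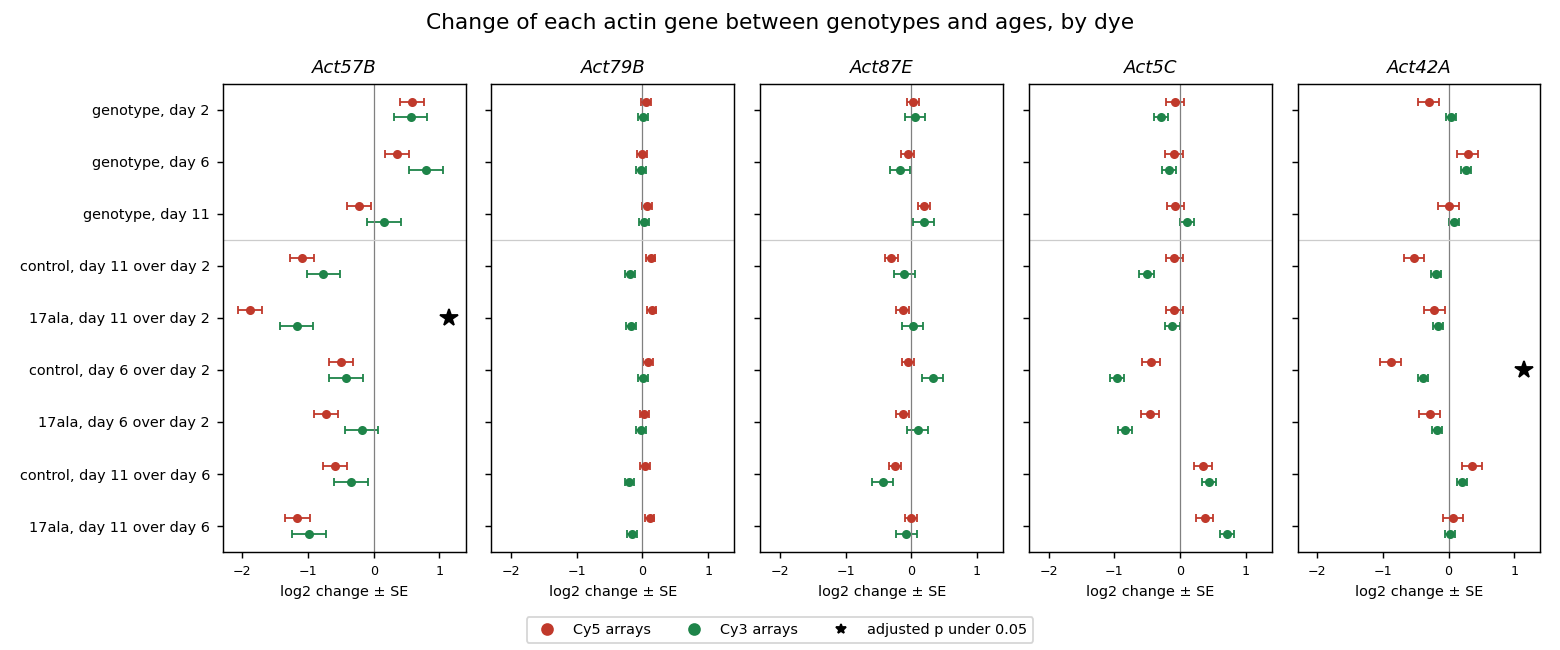
The log2 change (horizontal axis) of the 5 tested actin genes in 9 comparisons (rows), with bars of 1 SE from limma, for Cy5 and Cy3 arrays apart. Rows above the line compare genotypes, rows below it compare ages within a genotype, and a star marks a call, which only Act57B from day 2 to day 11 in PABPN1-17ala flies and Act42A from day 2 to day 6 in control flies have.

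Act87E and Act79B moved least from day 2 to day 11 in the mean of both dyes. For Act79B that mean averages opposite signs. It changed by 0.12 ± 0.07 with Cy5 and -0.19 ± 0.07 with Cy3 in control flies, and by 0.14 ± 0.07 and -0.17 ± 0.07 in PABPN1-17ala flies. From day 2 to day 11, Act87E differed by -0.20 in control and -0.05 in PABPN1-17ala flies, and its largest age difference was -0.34 in control flies between days 6 and 11. That difference includes the control day 6 array flagged below for this gene, and it ran from -0.411 to -0.26 with single arrays left out. The values of Act87E followed the dye more than the flies. At day 2 they were 0.39, 0.11 and 0.40 with Cy5 and -0.17, -0.49 and -0.24 with Cy3 in control flies, and 0.15, 0.43 and 0.39 with Cy5 and -0.29, -0.25 and -0.16 with Cy3 in PABPN1-17ala flies. Act79B ranged over 0.30 across its 12 means of condition and dye, against 2.34 for Act57B, 1.12 for Act5C, 0.88 for Act42A and 0.73 for Act87E. The spread between arrays within a condition and dye was also smallest for Act79B, with an SD of 0.08, and 88.3% of genes had a larger SD. It was larger for Act57B at 0.30 and Act88F at 0.50, where the median gene had 0.13. Without intensities, a stable level of Act79B and a weak signal of its probe cannot be told apart.

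The actins did not share 1 pattern. Over the 12 means of condition and dye, with each dye centred, the highest correlation among the 5 was that of Act5C with Act42A (r = 0.60) and the lowest that of Act87E with Act5C (r = -0.44), and these means share arrays and a reference. Act57B correlated with Act42A at 0.47 and with Act87E at 0.43. By the same measure, the genes most like Act57B were Syx1A, the syntaxin of synaptic release, at 0.957, then Kal1 at 0.954 and Rox8, an RNA binding protein, at 0.944. Those most like Act5C were CG12814 (0.978), obst-E, a cuticle protein (0.958), and CG6040 (0.954). Act42A was most like Phb2, a mitochondrial prohibitin (0.926), GluProRS, a tRNA synthetase (0.922), and yps (0.885). For Act79B they were CG11300, GCS2beta and CG8851 at 0.978 to 0.980. As the changes of Act79B from day 2 to day 11 had opposite signs in the dyes, this likeness takes in that contrast of dyes. For Act87E they were ScpX, dsf and CG3868 at 0.944 to 0.970. Each was picked as the highest over all genes tested, so these values are a description.

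Genes that fold, assemble or bind actin or regulate its filaments, and muscle transcription factors, were read beside the actins as 7 lists with 82 identifiers tested. The transcription factors make up 10 of the 82, salm and hth among them, so the counts below are not of actin partners alone. For the mean of the 3 days, 5 were called higher and 2 lower in PABPN1-17ala flies, at a median of 0.02, so that 7 of 82 were called where 3.18% of all genes were. Among those higher were CCT2 and CCT5, subunits of the chaperonin that folds actin, at 0.43 and 0.40, and tsr, the cofilin that takes filaments apart, at 0.71. Fhos, a formin of thin filament growth, was lower at -0.56, through 1 of its 2 identifiers (the other at 0.01). TpnC4, the troponin C of flight muscle, was lower at -1.08. The other calls were salm at 0.87 and 1 of the 3 identifiers of Mlp60A, a muscle LIM protein, at 0.28. The other identifiers of Mlp60A were at -0.23 and -0.04, and its call was lost without the array with conflicting labels. At day 2 only salm was called, at 1.86, and it encodes Spalt major, the factor that sets flight muscle fate. This 1 of 82 is close to the 0.95% of all genes called. At day 6, against 1.6% of all genes, Fhos (-0.87) and TpnC4 (-1.84) were called lower, and at day 11 none was.

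From day 2 to day 11, 5 of the 82 were called lower in control flies and 9 in PABPN1-17ala flies, and 0 higher in either, where 0.892% and 1.81% of all genes were called lower. The list with most calls was that of the cross-linkers of filaments, with 3 of 10 identifiers lower in control (median -0.66) and 5 of 10 in PABPN1-17ala flies (median -0.76). Vinc, the vinculin, was lower at -0.72 in control and -0.80 in PABPN1-17ala flies, jbug, a filamin, at -0.94 and -0.71, and the muscle LIM protein Mlp60A at -1.76 and -1.33 through 1 of its 3 identifiers. Mlp84B, another muscle LIM protein, was lower in PABPN1-17ala flies at -1.58. Of the muscle transcription factors, salm (-1.84) and hth, a homeodomain factor (-0.69), were lower in PABPN1-17ala flies. Among the regulators of the thin filament, TpnC4 and TpnC41C were lower in both genotypes, at -1.58 and -1.56 in control and -1.86 and -1.61 in PABPN1-17ala flies. In the steps through day 6, where the shares over all genes are those given above, 6 more calls fell on these lists, with Fhos higher from day 2 to day 6 in control flies (0.96) and Mlp60A, jbug, TpnC4 and TpnC41C lower in 1 or more steps. The actin-related proteins had 0 of 9 called and the CCT chaperonin 0 of 8 in either genotype with age.

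**Figure D4:**
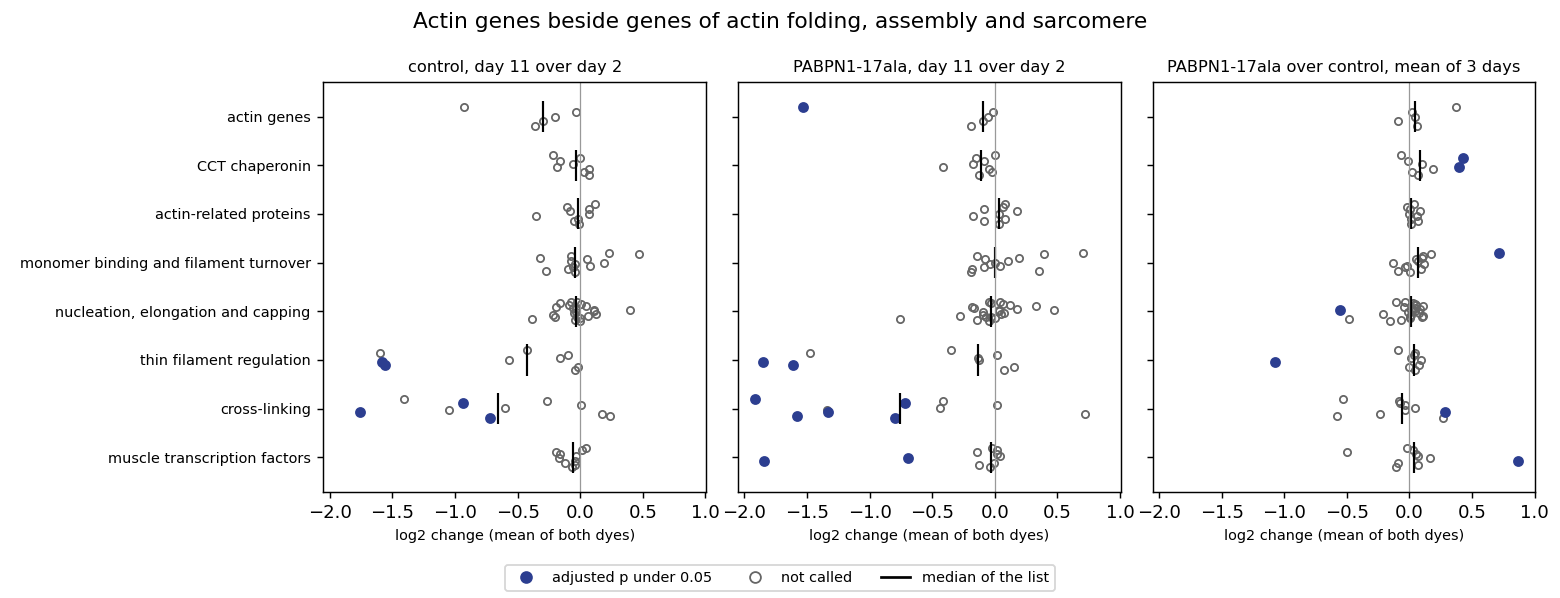
The log2 change (horizontal axis, mean of both dyes) of the 5 tested actin genes and of the genes in 7 lists (rows), with age in control flies, with age in PABPN1-17ala flies, and between genotypes over the 3 days. Filled points have a limma adjusted p under 0.05, open points do not, and the short line is the median of each row. Calls with age lie at negative values, most of them among cross-linkers and regulators of the thin filament, with Act57B the one actin.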

How the data were processed

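Thorax RNA was amplified, coupled to dyes and hybridised to 36 long-oligonucleotide arrays with 2 colours. The deposited values are log ratios, read here as log2, which the authors normalized before deposition, with 1 line per identifier and 932 empty values over all genes. The background correction and the normalization are not given in the sources used here, and without intensities no floor could be set. The arrays had medians between -0.061 and 0.042, and their number limits the precision. Arrays correlated at no less than -0.11 within a dye and at -0.49 to 0.70 between dyes. No pair among 630 held identical values. Of 13843 lines, 23 name no gene, and 12047 identifiers were paired with symbols by locus tag and 1153 by synonym (620 unpaired) through the RefSeq annotation of release 6, used for names only.

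A gene was tested if, in every condition, at least 2 of its 3 arrays per dye had a value, which 13791 genes met and 29, Act88F among them, did not. The Cy5 and the Cy3 arrays were fitted apart in limma 3.58.1 (R 4.3.3) as condition means. Changes were averaged over the dyes, and p is the larger of both (1 where the signs differ), adjusted by Benjamini-Hochberg over all genes, with a threshold of 0.05. Tests are two-sided. The dyes were fitted apart because which Cy5 and Cy3 arrays share an extract is not stated. Within a dye, each SE and p rests on 1 spread per gene, pooled over all conditions and drawn by limma toward that of other genes. The groups compared can thus spread more or less than the SE shows. For Act57B with Cy3, the SD ran from 0.07 in PABPN1-17ala flies at day 6 to 0.74 at day 11. The pooled spread is that between 3 RNA samples per condition, which may be in part technical. The study's methods name a two-way ANOVA. The actin genes were reported whatever their call. The members of the lists were matched by symbol (3 of the names had no identifier), called ones were named, or the 4 with the smallest adjusted p where more were called, and likeness took the 3 highest correlations. The genes, lists and tests were chosen with earlier results of these data known. The alternatives were a single fit, each dye alone, a replicate block, the compared conditions alone, median centring, quantile normalization, other filters on empty values, a stricter threshold, and leaving out each array.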

Additional observations from a re-analysis of the deposited data

Results flagged for a closer look

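Act87E on the control day 6 array of replicate 6 (Cy3) read 0.328, where the other Cy3 arrays of the condition read -0.127 and -0.113. After each dye was centred, its gap to the nearest of the other arrays was 0.766 of the whole range of the 6 arrays, above Dixon's 95% critical value for 6 values. This was 1 of 35 sets of arrays examined over the 6 actin genes, and chance marks about 1 set in 20.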

How the results depend on the processing

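For the 5 tested actins in 11 comparisons, 496 of 545 values under other settings kept their direction and their side of the threshold, 23 newly passed, 5 no longer passed and 21 changed sign, and the cause was not tested. With each array left out in turn, 800 of 840 kept both. The descriptions give all conditions the same replicate numbers, which are used here, while the sample titles count on through the days of each genotype. Arrays of 1 number deviated from their condition means with correlations of -0.17 to 0.21 with Cy5 and -0.21 to 0.29 with Cy3, so the numbers were not taken to pair arrays. The replicate block changed no actin call (Act57B from day 2 to day 11 in PABPN1-17ala flies, -1.53 with an adjusted p of 0.0117 under the block), nor did either other filter on empty values. For the mean of the 3 days, the compared conditions are all conditions, so that fit is the same.

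A single fit of both dyes, which counts arrays of a shared extract as separate, called 1 actin between genotypes at day 6 (Act57B, adjusted p = 0.0417) and 1 for the mean of the 3 days (Act57B, 0.0105). With age from day 2 to day 11 it called 2 in control flies, from day 2 to day 6 it called 2 in control and 1 in PABPN1-17ala flies, and from day 6 to day 11 it called 2 in each genotype. Over all genes it called 316 higher and 243 lower at day 2, against 92 and 39 with the dyes apart.

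The Cy5 arrays alone called 3 actins from day 2 to day 11 in control flies, and in PABPN1-17ala flies 1 from day 2 to day 6 and 1 from day 6 to day 11. The Cy3 arrays alone called 1 from day 2 to day 11 in control flies, 2 from day 2 to day 6 in control and 1 in PABPN1-17ala flies, and from day 6 to day 11 they called 1 in control and 2 in PABPN1-17ala flies. Fitting only the compared conditions left 0 called from day 2 to day 11 in PABPN1-17ala flies and 0 from day 2 to day 6 in control flies, and called 1 (Act5C) from day 2 to day 6 in PABPN1-17ala flies. From day 2 to day 6 in control flies, median centring left 0 and quantile normalization gave 2. The threshold of 0.01 left 0 from day 2 to day 11 in PABPN1-17ala flies and 0 from day 2 to day 6 in control flies.

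Over all genes, fitting only the compared conditions in limma moved the calls between genotypes from 131 to 45 at day 2, from 221 to 482 at day 6 and from 163 to 0 at day 11 (477 at an unadjusted p under 0.05), and those of the genotype difference from 40 to 20. With age, they moved from 214 to 59 (control) and 544 to 212 (PABPN1-17ala) from day 2 to day 11, from 80 to 43 in control flies from day 2 to day 6, and from 20 to 0 (444 unadjusted) and 132 to 6 from day 6 to day 11. With single arrays left out, the calls ranged from 65 to 459 between genotypes at day 11, from 29 to 233 for the genotype difference, from 3 to 19 (control) and 56 to 367 (PABPN1-17ala) from day 6 to day 11, from 75 to 171 between genotypes at day 2 and from 34 to 75 from day 2 to day 6 in control flies. PABPN1-17ala day 11 replicate 4 was the array behind the highest of the first 2 ranges and of that of PABPN1-17ala flies from day 6 to day 11.

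Sign changes were all of uncalled differences. With Cy5 alone, the genotype difference was -0.0679 for Act5C at day 11 and -0.00432 for Act42A over the 3 days. With age, Act79B was 0.123 (control) and 0.138 (PABPN1-17ala) from day 2 to day 11 and 0.0364 and 0.108 from day 6 to day 11, and Act87E was -0.0512 from day 2 to day 6 in control flies. With Cy3 alone, the genotype difference was 0.0438 for Act42A at day 2 and 0.157 for Act57B at day 11, and in PABPN1-17ala flies Act87E was 0.0243 from day 2 to day 11 and 0.0976 from day 2 to day 6, and Act79B was -0.0169 from day 2 to day 6. With median centring, Act5C was -0.00234 between genotypes at day 11, and the change in the genotype difference of Act79B was -0.0151. With quantile normalization, the genotype difference of Act5C was 0.163 at day 6, -0.0133 at day 11 and 0.0125 over the 3 days, that of Act57B was 0.0043 at day 11 and that of Act87E was -0.00182 over the 3 days. The change in the genotype difference of Act79B was then -0.0174, and Act87E from day 2 to day 6 in PABPN1-17ala flies was 0.0374.

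With single arrays left out, the number of actins called ranged from 0 to 1 from day 2 to day 11 and from day 6 to day 11 in PABPN1-17ala flies and from day 2 to day 6 in control flies. The array that decided the second of these was PABPN1-17ala day 11 replicate 4, without which Act57B differed by -1.29 between days 6 and 11 (adjusted p = 0.00207). The genotype difference ranged from -0.000248 to 0.0596 for Act79B and from -0.00449 to 0.0867 for Act87E at day 2, from -0.0283 to 0.0019 for Act79B at day 6, and at day 11 from -0.248 to 0.0806 for Act57B, from -0.0472 to 0.0762 for Act5C and from -0.0456 to 0.144 for Act42A. Its change to day 11 ranged from -0.0153 to 0.0479 for Act79B. In PABPN1-17ala flies, Act79B ranged from -0.0478 to 0.00395 from day 2 to day 11 and from -0.0243 to 0.0275 from day 2 to day 6, and Act87E from -0.101 to 0.0207 from day 2 to day 11, from -0.0603 to 0.0109 from day 2 to day 6 and from -0.0841 to 0.0375 from day 6 to day 11.

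Without intensities, how far each probe lay above background is not known here, and 3 arrays per condition and dye limit the differences that can pass.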
